A study of Mus musculus with 143 samples.

Results

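The genes of the smooth muscle contractile apparatus were followed across sorted adipose stem cells (ASC), mesenchymal cells of fat tissue that can become adipocytes. The set holds 10 of the 53468 genes in the count table: Acta2, Actg2, Myh11, Tagln, Cnn1, Myl9, Lmod1, Des, Cspg4 and Ano1. The rule lists them by name and uses no measured value. The donors were 8 male and 8 female wild-type C57BL6/J mice, with fat taken from the perigonadal depot (pgWAT) and from the inguinal depot (iWAT). The mice were 18 weeks old and had been fasted for 4 h, with no other treatment in any group. Flow cytometry kept cells without CD45 (leukocytes) and CD31 (endothelium) that carried CD34, and then divided them by DPP4 into ASC2 (DPP4+) and ASC1 (DPP4-). No antibody against a mural cell protein was part of this gate. Depot, gate and sex gave 8 groups of 7 mice each, except for 8 mice in the male iWAT DPP4- group. RNA was taken from 5000 sorted cells, and RNA of about 300 cells went into each amplified Smart-seq2 library.

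Smooth muscle cells shorten when myosin slides along actin filaments. The filaments are built from the actins Acta2 and Actg2, the motor is the heavy chain Myh11, and the light chain Myl9 switches the motor on when the kinase Mylk phosphorylates it. Calponin (Cnn1) and transgelin (Tagln) bind actin, leiomodin (Lmod1) starts new filaments, desmin (Des) forms the intermediate filaments that tie the apparatus together, the proteoglycan NG2 (Cspg4) sits on the surface of mural cells, and the chloride channel Ano1 depolarises smooth muscle. In fat, these genes are known from the smooth muscle cells and pericytes that wrap vessels, together called mural cells. In the mammary gland, which lies within female inguinal fat, basal (myoepithelial) cells carry the same contractile genes. In bulk RNA, fewer cells of a type and less RNA per cell cannot be told apart.

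The sorted cells carried the markers of ASC: the summed level of Pdgfra, Dcn, Lum, Col1a1, Ly6a and Cd34 lay between 3805 and 33780 CPM in every sample, CPM being counts scaled to the total of the sample. The lowest of these was mouse 22 in female iWAT DPP4-, and the other 56 samples were at 11280 CPM or above. Summed samples held 545885 to 4029915 gene counts, and the median library of the female iWAT DPP4- group, with 304587 counts, was the shallowest of the 8 groups. In 2 mice the contractile genes stood apart. The 3 samples of female mouse 18 gave 35.2% of all counts of the 10 genes but only 5.75% of all gene counts, and the 4 samples of male mouse 1 gave 17.2% against 8.78%. The fits of both gates were therefore also made without these mice, a choice made after the data were seen.

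The promoters of 7 of the 10 genes were in the RefSeq table of build GRCm38.p6, as windows from 250 bases before to 50 bases after the start of transcription. Actg2, Myh11 and Tagln had no window there. The windows were searched because many smooth muscle genes are known to be driven through the CArG box, the motif of serum response factor. Those of Cnn1 and Cspg4 were searched but are not printed. A link between boxes and the way genes moved together was not tested. The CArG box reads the same on both strands. It was searched exactly and with at most 1 letter off, and capitals mark the boxes found. The windows are chr19:34255324-34255623 (minus strand) for Acta2, chr2:156775214-156775513 (plus) for Myl9, chr1:135324563-135324862 (plus) for Lmod1, chr1:75360042-75360341 (plus) for Des and chr7:144738524-144738823 (minus) for Ano1, which starts inside the gene as GENCODE M21 draws it.
Acta2: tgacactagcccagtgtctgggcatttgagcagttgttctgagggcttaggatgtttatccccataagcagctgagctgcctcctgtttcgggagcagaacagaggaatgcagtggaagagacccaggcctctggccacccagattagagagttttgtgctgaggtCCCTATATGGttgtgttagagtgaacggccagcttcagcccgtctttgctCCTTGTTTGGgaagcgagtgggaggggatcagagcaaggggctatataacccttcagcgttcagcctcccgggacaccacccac
Myl9: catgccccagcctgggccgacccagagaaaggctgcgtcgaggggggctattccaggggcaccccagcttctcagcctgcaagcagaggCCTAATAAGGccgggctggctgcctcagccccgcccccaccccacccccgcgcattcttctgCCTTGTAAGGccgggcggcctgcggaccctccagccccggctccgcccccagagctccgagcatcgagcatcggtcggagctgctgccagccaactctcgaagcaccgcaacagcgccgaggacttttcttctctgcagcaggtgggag
Lmod1: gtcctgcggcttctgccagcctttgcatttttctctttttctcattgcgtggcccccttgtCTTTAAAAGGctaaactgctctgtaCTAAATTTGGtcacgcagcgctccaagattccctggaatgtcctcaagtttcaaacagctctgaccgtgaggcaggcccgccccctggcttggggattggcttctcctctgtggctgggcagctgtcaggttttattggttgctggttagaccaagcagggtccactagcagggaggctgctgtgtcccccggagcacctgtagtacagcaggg
Des: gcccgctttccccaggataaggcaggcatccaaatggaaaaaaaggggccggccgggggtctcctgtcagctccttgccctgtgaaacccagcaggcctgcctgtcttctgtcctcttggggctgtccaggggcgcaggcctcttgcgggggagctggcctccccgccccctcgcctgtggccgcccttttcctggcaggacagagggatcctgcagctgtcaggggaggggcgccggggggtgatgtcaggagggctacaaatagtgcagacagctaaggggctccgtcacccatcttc
Ano1: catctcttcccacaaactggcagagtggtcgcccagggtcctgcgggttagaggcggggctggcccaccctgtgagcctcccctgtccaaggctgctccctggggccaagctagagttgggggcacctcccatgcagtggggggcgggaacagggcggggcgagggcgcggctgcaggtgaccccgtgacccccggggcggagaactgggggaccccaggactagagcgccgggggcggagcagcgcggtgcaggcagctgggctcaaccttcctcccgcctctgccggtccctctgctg

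The Acta2 window held boxes between 84 and 75 and between 34 and 25 bases before the start, each 1 letter off. The Myl9 window held an exact box 161 to 152 bases before the start and another, 1 letter off, 99 to 90 bases before it. Lmod1 had 2 boxes 1 letter off, 189 to 180 and 164 to 155 bases before the start, and Cspg4 had 2 that overlapped each other. The windows of Cnn1, Des and Ano1 held none. Over all 32851 promoter windows searched, 1.63% held an exact box, 21.1% a box with at most 1 letter off and 3.7% at least 2 such boxes, against 1, 4 and 4 of the 7 windows here. Of 25 other contractile genes, 3 held an exact box and 12 a box with at most 1 letter off. Each of these genes was counted by its best window, which is not the same measure as the share of single windows. These matches describe letters in a window and not binding.

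The genes themselves lie on several chromosomes of GRCm38. Acta2 (ENSMUSG00000035783) is at chr19:34241090-34255590, Actg2 at chr6:83512905-83536265, Myh11 at chr16:14194535-14291372, Ano1 at chr7:144588549-144751974 and Myl9 at chr2:156775420-156781658. Des, at chr1:75360329-75368579, and Lmod1, at chr1:135324807-135368065, share chromosome 1. Cnn1 at chr9:22099216-22109630, Tagln at chr9:45929619-45936058 and Cspg4 at chr9:56865033-56899870 share chromosome 9. Reads of 50 bases place these genes almost uniquely. Only 0.326% of the 50-base windows in Acta2 transcripts also occur in another gene (Actg1 and pseudogenes), as do 0.34% in Myh11 (Myh9 and Myh10) and none in the other 8 genes. On the opposite strand, Tagln overlaps the antisense gene Gm48529 by 3627 bases and Pcsk7 by 108 bases, and Ano1 overlaps Gm44930, which had 0 counts, by 7896 bases. Gm48529 had 392 counts over all samples, and its reads cannot be told apart from those of Tagln if strand was not used in counting.

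Per length, the light chain Myl9 had the highest median level of the 10 genes in 7 of the 8 groups, between 8.71 CPM per kb of exon in male iWAT DPP4+ and 87.9 in female pgWAT DPP4-. In male pgWAT DPP4+ the median of Acta2 was 34.4 CPM per kb and that of Myl9 33.2, which is within the spread between mice. Acta2 followed Myl9 in 4 groups and Des in 3. At the other end, the median of Actg2 was 0 in 5 groups.

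Acta2, which makes smooth muscle alpha-actin, was read in 56 of the 57 samples, and its level ran from 0 to 1437 CPM. The female pgWAT DPP4- samples had 78.3, 113 and 1077 CPM (lowest, median and highest), and the female pgWAT DPP4+ samples 1.77, 16.5 and 1437. Male pgWAT samples had 0, 22.4 and 142 CPM in DPP4- and 3.74, 75.5 and 372 in DPP4+. Every female pgWAT DPP4- sample thus held Acta2 at a level that only some samples of the other pgWAT groups reached. In iWAT, Acta2 was at 49.0, 84.0 and 841 CPM in female DPP4- cells and at 1.30, 4.13 and 75.4 in female DPP4+ cells. Male iWAT DPP4- cells had 1.49, 20.9 and 63.2 CPM and male iWAT DPP4+ cells 0.54, 5.72 and 357. Ordered by median, the groups ran from female pgWAT DPP4- to female iWAT DPP4-, male pgWAT DPP4+, male pgWAT DPP4-, male iWAT DPP4-, female pgWAT DPP4+, male iWAT DPP4+ and female iWAT DPP4+. The ranges of all neighbours in this order overlapped. Only the female pgWAT DPP4- samples lay wholly above the female iWAT DPP4+ and the male iWAT DPP4- samples.

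**Figure D1:**
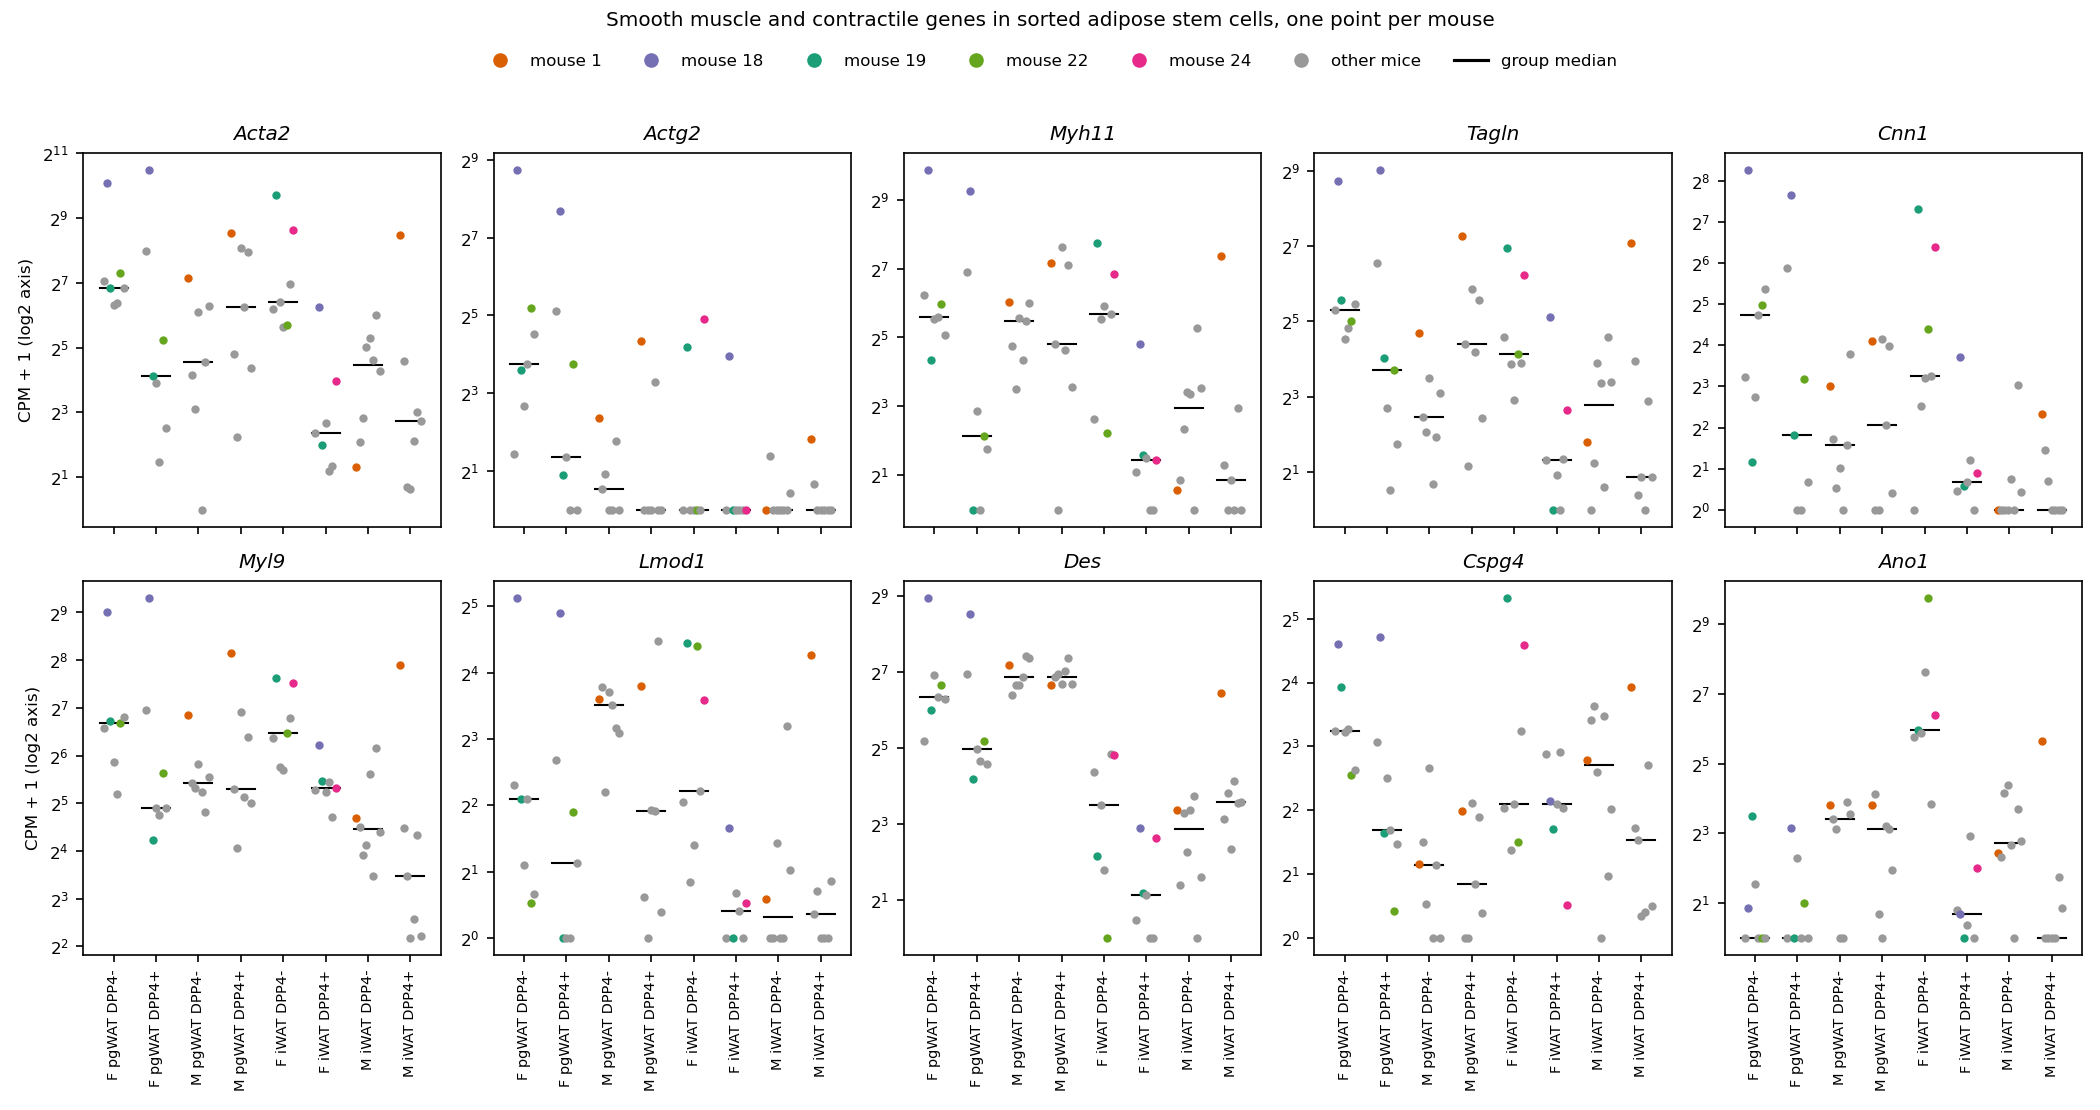
Levels of the 10 genes in CPM + 1 on a log2 axis in each sample of the 8 groups (F, female; M, male); each point is a mouse, horizontal lines are group medians, and mice 1, 18, 19, 22 and 24 are coloured. For Acta2, mouse 18 is at 1077 and 1437 CPM in the female pgWAT gates, above all other mice.

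Myh11, the smooth muscle myosin heavy chain had its highest medians in female iWAT DPP4- and in the pgWAT DPP4- cells of both sexes. In pgWAT its lowest, median and highest levels were 19.2, 47.4 and 939 CPM in female DPP4- cells and 0, 3.39 and 613 in female DPP4+ cells. Male pgWAT cells had 10.3, 44.0 and 64.6 CPM in DPP4- and 0, 27.0 and 196 in DPP4+. All 14 pgWAT DPP4- samples thus held Myh11, while 3 of the 14 DPP4+ samples were at 0. In iWAT, female DPP4- cells had 3.66, 50.8 and 212 CPM and female DPP4+ cells 0, 1.74 and 26.9. Male iWAT cells had 0, 6.67 and 37.8 CPM in DPP4- and 0, 0.81 and 165 in DPP4+. The enteric-type actin Actg2 was the gene most often without a read, in 32 of 57 samples, and only female pgWAT DPP4- cells had it in every mouse, at 1.68, 12.52 and 431 CPM. In the other 7 groups the lowest sample was at 0 and the median at most 1.56 CPM. No male sample exceeded 19.1 CPM.

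The actin-binding proteins followed. Tagln was at 22.1, 38.8 and 422 CPM in female pgWAT DPP4- cells and at 0.61, 4.55 and 24.7 CPM in male pgWAT DPP4- cells, so that 1 male sample, that of mouse 1, reached the female range. In DPP4+ cells of pgWAT it was at 0.44, 12.2 and 523 CPM in females and at 1.25, 20.1 and 152 CPM in males, which overlapped. Its iWAT medians lay between 0.82 and 16.5 CPM. Cnn1 was at 1.22, 25.6 and 310 CPM in female and at 0, 2.00 and 12.9 CPM in male pgWAT DPP4- cells. In pgWAT DPP4+ cells it was at 0, 2.53 and 203 CPM in females and 0, 3.16 and 16.8 CPM in males. The sexes overlapped in both gates, with the highest male sample below the female median in DPP4- cells. In iWAT, Cnn1 was at 0, 8.46 and 158 CPM in female DPP4- cells, and its median was at most 0.60 CPM in the other 3 groups.

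Myl9 was the only gene of the set with reads in all 57 samples. Its lowest, median and highest levels in iWAT DPP4- cells were 50.6, 87.9 and 196 CPM in females and 10.2, 21.0 and 70.8 CPM in males, and in iWAT DPP4+ cells 25.3, 38.8 and 73.3 CPM in females and 3.52, 10.1 and 237 CPM in males. Outside mouse 1, no male iWAT DPP4+ sample reached the lowest female one. In pgWAT the medians were 102 and 29.0 CPM in the female DPP4- and DPP4+ groups and 41.9 and 38.6 CPM in the male ones. Lmod1 stayed low, with medians between 0.25 and 10.3 CPM and a highest value of 33.9 CPM in mouse 18.

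Single mice set the upper end of these ranges. Mouse 18 was the highest for 9 of 10 genes in female pgWAT DPP4-, for 10 of 10 in female pgWAT DPP4+ and for 8 of 10 in female iWAT DPP4+. Its Myh11 level in pgWAT DPP4- was 12.6 times that of the next mouse, and its Actg2 level, 431 CPM, was 12.1 times. Mouse 1 was the highest for 10 of 10 genes in male iWAT DPP4+, where its Myh11 level was 24.6 times and its Acta2 level 15.5 times that of the next mouse. The same mouse had 1.49 CPM of Acta2 in its iWAT DPP4- sample, the lowest of that group. Mouse 19 led 7 of 10 genes in female iWAT DPP4-, with 841 CPM of Acta2 against 394 in mouse 24 and at most 124 in the others. Mouse 7 led 6 of 10 in male iWAT DPP4-.

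Single libraries of these mice were compared. In mouse 18, Acta2 was at 1547, 1305 and 1379 CPM in the 3 libraries of pgWAT DPP4+ and at 1122 and 997 CPM in the 2 libraries of DPP4-. In mouse 1, it was at 356 and 361 CPM in the iWAT DPP4+ libraries, and at 1.38, 2.31 and 0 CPM in those of iWAT DPP4-. The 3 iWAT DPP4- libraries of mouse 19 had 798, 871 and 1020 CPM. Some other genes were less even between libraries of a sample. Myh11 was at 498, 879 and 515 CPM in mouse 18 (pgWAT DPP4+), Tagln at 152, 58.7 and 72.9 CPM and Actg2 at 0, 49.6 and 59.6 CPM in mouse 19 (iWAT DPP4-), and Ano1 at 60.2 and 28.6 CPM in mouse 1 (iWAT DPP4+). On the log2(CPM + 1) scale, the standard deviation (SD) between mice of a group was larger than that between libraries of a sample for 8 of the 10 genes. It was 2.19 against 0.84 for Acta2, 2.26 against 0.96 for Myh11 and 1.24 against 0.68 for Myl9. For Des the values were 1.23 and 1.27, and for Cspg4 1.16 and 1.66.

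The contractile genes co-varied from mouse to mouse. Pearson's r of log2(CPM + 1) was computed for all 45 pairs of genes over the mice of each group, as a description over 7 or 8 mice whose genes share a library and its depth. Of the 360 values, 305 were positive, with a median r of 0.69. Group medians ran from 0.11 in male iWAT DPP4- (23 of 45 positive) to 0.91 in female pgWAT DPP4+ (45 of 45). Male iWAT DPP4+ also had 45 of 45 positive. Mouse 18 in female pgWAT DPP4+ and mouse 1 in male iWAT DPP4+ were the highest for all 10 genes. The r of pairs was not computed without these mice. Among Acta2, Myh11, Tagln, Cnn1 and Myl9, all 80 values were positive, between 0.39 and 0.99, with a median of 0.86. Pairs with Des had a median r of 0.40, pairs with Cspg4 0.57 and pairs with Ano1 0.23. Levels in the gates of a mouse were less alike. Between the DPP4+ and DPP4- samples of the same mouse, r over 13 mice ran from 0.14 (Cspg4) to 0.72 (Myl9) in pgWAT and from -0.41 (Cspg4) to 0.34 (Des) in iWAT.

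**Figure D2:**
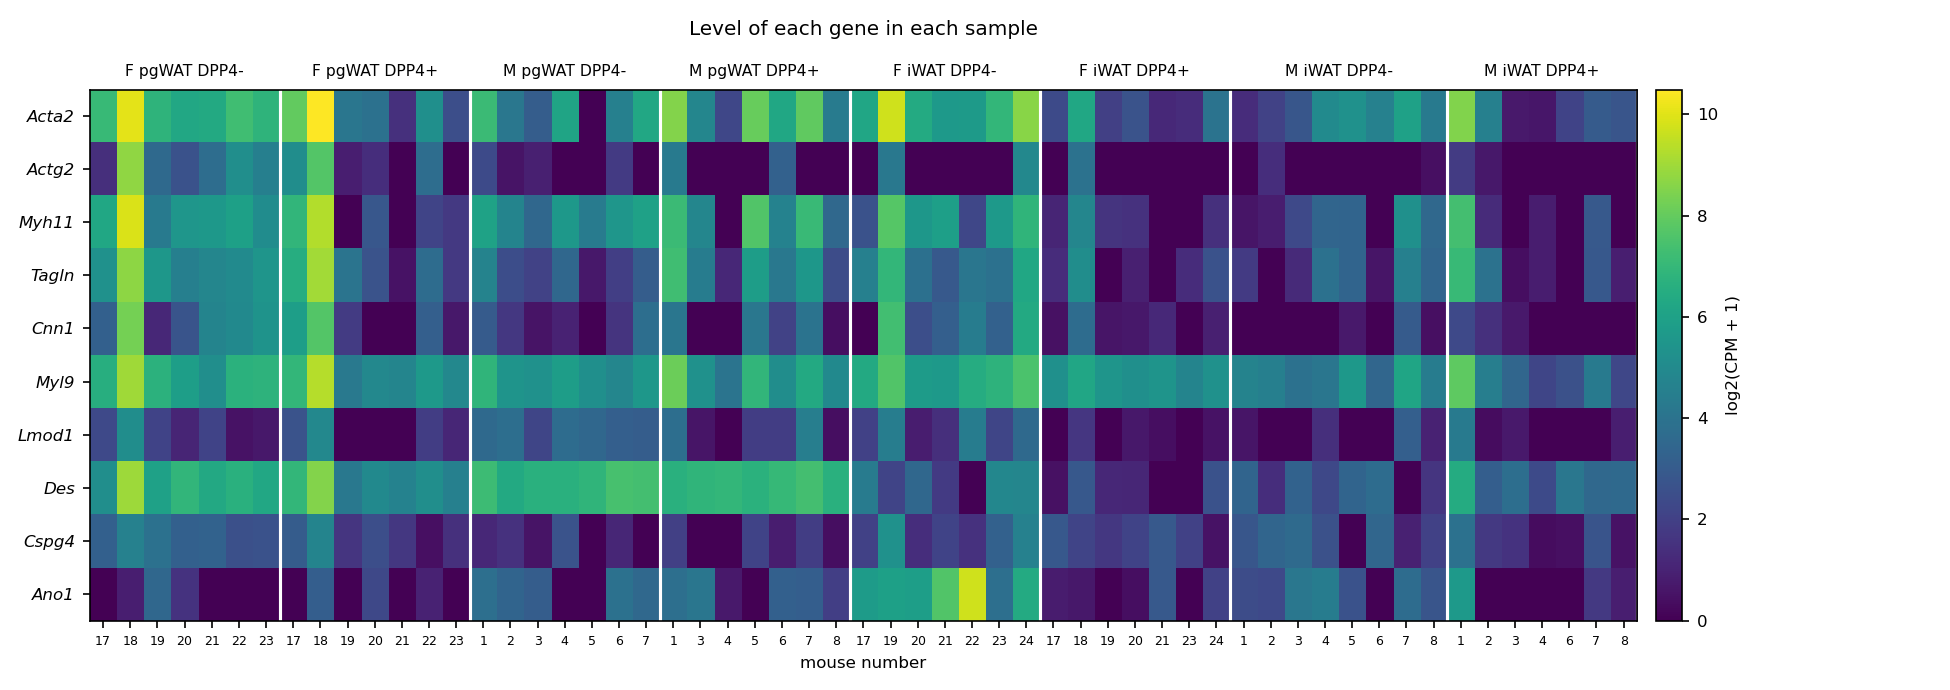
Heat map of log2(CPM + 1) for the 10 genes (rows) in all 57 samples (columns), ordered by group and mouse. Columns of mouse 18 in female pgWAT, mouse 1 in male iWAT DPP4+ and mouse 19 in female iWAT DPP4- are high for most genes at once, while Des is high across all of pgWAT and Ano1 in female iWAT DPP4-.

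Des had another pattern. Desmin was read at 82.9, 116 and 171 CPM in male pgWAT DPP4- and at 99.5, 115 and 164 CPM in male pgWAT DPP4+, with both gates over nearly the same range. Female pgWAT cells had 35.4, 79.5 and 492 CPM in DPP4- and 17.3, 30.4 and 369 in DPP4+. In iWAT the values were 0, 10.4 and 27.8 CPM in female DPP4-, 0, 1.20 and 6.49 in female DPP4+, 0, 6.28 and 12.2 in male DPP4- and 4.06, 11.04 and 85.9 in male DPP4+. In each sex and gate, every pgWAT sample lay above every iWAT sample. Mouse 1, highest in male iWAT DPP4+ with 85.9 CPM, had the lowest Des level of its group in male pgWAT DPP4+, where it led Acta2, Actg2, Tagln and Myl9.

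The sum of a list of markers of mesothelium, the lining of the abdominal cavity that covers pgWAT, also separated the depots. The summed level of Msln, Upk3b, Upk1b, Lrrn4, Wt1, Bnc1 and Muc16 lay between 46.9 and 220 CPM in the 4 pgWAT groups and between 0 and 42.5 CPM in the 4 iWAT groups. Of the 7 genes, 4 to 7 had reads in each pgWAT group, and Msln was at 0 in both DPP4- groups of iWAT. Lrrn4, Bnc1 and Muc16 had no read in male pgWAT DPP4- cells. Between the depots, 2 of the 7 genes could be tested in males and 1 in females. Wt1 alone was called, lower in iWAT in both sexes, against 13.6% and 6.6% of all genes. Whether the sum stands for mesothelial cells, and the part of such cells in the Des level, was not tested.

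Cspg4 was low throughout. Its lowest, median and highest levels were 4.84, 8.42 and 23.3 CPM in female pgWAT DPP4- and 0, 1.20 and 5.35 in male pgWAT DPP4-. In DPP4+ cells of pgWAT they were 0.34, 2.22 and 25.2 CPM in females and 0, 0.79 and 3.35 in males. In pgWAT the sexes thus overlapped in both gates, although only 1 of 14 male samples exceeded 5 CPM, against 8 of 14 female samples. In iWAT the group medians were between 1.90 and 5.51 CPM.

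Ano1 had a level of its own in female iWAT DPP4- cells, where all 7 samples were at 13.3 CPM or above, with a median of 61.7 and a highest value of 859 CPM in mouse 22. That sample was also the one with the lowest ASC markers, 3805 CPM. The next mouse, 21, had 196 CPM. In the other 7 groups the medians lay between 0 and 9.56 CPM, and the highest sample there was mouse 1 in male iWAT DPP4+ with 49.3 CPM. Male iWAT DPP4- cells had 0, 5.56 and 19.9 CPM, so that only mouse 23 of the females lay within the male range. In pgWAT, 8 of 14 female samples had no Ano1 read, against 3 of 14 male samples.

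The luminal epithelium of the mammary gland moved with Ano1. In female iWAT DPP4- samples the summed level of Krt8, Krt18, Krt19, Epcam, Csn3, Wfdc18, Ltf and Prlr ran from 259 CPM in mouse 23 to 19898 CPM in mouse 22, with 4709 CPM in mouse 21. All 8 markers had reads in that group. In the other 7 groups the sum lay between 0.67 and 339 CPM. Over these 7 mice, Ano1 and the luminal sum on the log2(CPM + 1) scale had a Pearson r of 0.97 and a Spearman rho of 0.96. Without the 2 mice farthest from the median, r was 0.84. The list was set beside Ano1 after its values had been seen, so no test is given, and the part of these cells in the Ano1 level was not tested.

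The effect of sex was examined in each depot with the gate as covariate, by edgeR's quasi-likelihood F-test with Benjamini-Hochberg adjustment over all genes. Adjusted p values below come from this test unless another is named. The standard error (SE) was derived from it, as the unsigned log2 fold change over the square root of the F statistic. In limma's fits it was derived from the t statistic. In pgWAT, 4 of the 10 genes were lower in males, against 10.7% of all 11213 genes called in either direction. Actg2 had a log2 fold change, male against female, of -4.17 (SE 0.93, adjusted p = 0.00193), Cspg4 of -2.34 (SE 0.56, adjusted p = 0.00354), Cnn1 of -3.26 (SE 0.83, adjusted p = 0.00684) and Tagln of -2.22 (SE 0.74, adjusted p = 0.0486). Acta2 (-1.63), Myh11 (-1.38), Myl9 (-1.05) and Ano1 (2.05) did not pass, with adjusted p between 0.0701 and 0.314, and neither did Lmod1 (0.28) and Des (0.09). The median over the 10 genes was -1.50, and over all genes -0.004. These calls were sensitive to mouse 18. Without it, Actg2 (-2.08, adjusted p = 0.115), Cnn1 (-1.49, adjusted p = 0.251) and Tagln (-0.46, adjusted p = 0.781) no longer passed. Tagln was also lost without each of mice 2, 3, 4, 5, 6, 7, 8 and 17, at adjusted p between 0.0605 and 0.107. Cspg4 passed in all 15 fits that left out a mouse, at -1.64 (adjusted p = 0.0487) without mouse 18. Without mouse 1, Actg2 was at -5.50 and Tagln at -2.95. Other calls appeared: without mouse 18, Lmod1 (2.06, adjusted p = 0.0267), Des (1.12, adjusted p = 0.00061) and Ano1 (2.54, adjusted p = 0.0329) were higher in males. Ano1 also passed without mouse 4, 5 or 19 (adjusted p = 0.0354, 0.0309 and 0.0233), and without mouse 1 Myl9 was lower in males (-1.60, adjusted p = 0.0339).

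Without mice 1 and 18 together, 3 of 10 genes passed in pgWAT, against 9.38% of all genes. Actg2 (-3.22, adjusted p = 0.0102) and Cspg4 (-1.77, adjusted p = 0.0473) were lower in males, and Des was higher (1.12, SE 0.24, adjusted p = 0.00128). The 2 gates of a mouse are not independent. With the mouse as a block, which limma's correlation between samples of the same animal provides, only Cspg4 passed (-2.18, SE 0.62, adjusted p = 0.0157), 1 of 10 genes against 11.6% of all genes. In the DPP4- samples alone, where each mouse gives 1 sample, 5 of the 8 genes tested were lower in males, against 9.33% of all genes. They were Acta2 (-2.37, adjusted p = 0.0334), Myh11 (-2.20, adjusted p = 0.0494), Tagln (-3.48, adjusted p = 0.00168), Cnn1 (-4.29, adjusted p = 0.00336) and Cspg4 (-2.57, adjusted p = 0.00585) in edgeR's test. Mouse 18 was part of this fit, and the gate was not fitted without it. It had 939 CPM of Myh11 there, where the medians were 47.4 CPM in females and 44.0 CPM in males. With both gates, leaving out single mice gave -2.15 to 0.11 for Acta2 and -1.61 to 0.77 for Myh11. In the DPP4+ samples alone, 0 of 5 genes tested passed by edgeR's test, against 4.26% of all genes, and 0 had an unadjusted p under 0.05. The difference between the gates was tested itself, as the interaction of sex and gate. In pgWAT, 0 of 10 genes passed by edgeR's test (1.16% of all genes), with 0 at an unadjusted p under 0.05 and 0 by DESeq2. The values were 1.42 for Acta2, 2.77 for Actg2, 1.60 for Myh11, 2.24 for Tagln, 1.78 for Cnn1, 0.74 for Myl9, -0.45 for Lmod1, 0.42 for Des, 0.49 for Cspg4 and -0.15 for Ano1. With the mouse as a block, 7 of 10 genes had an unadjusted p under 0.05, with a median of 2.02 over the 10. Of these, Tagln passed after adjustment (3.41, SE 0.85, adjusted p = 0.037), 1 of 10 genes against 1.8% of all genes, and its positive sign stands for a male to female ratio that was higher in DPP4+ than in DPP4- cells.

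**Figure D3:**
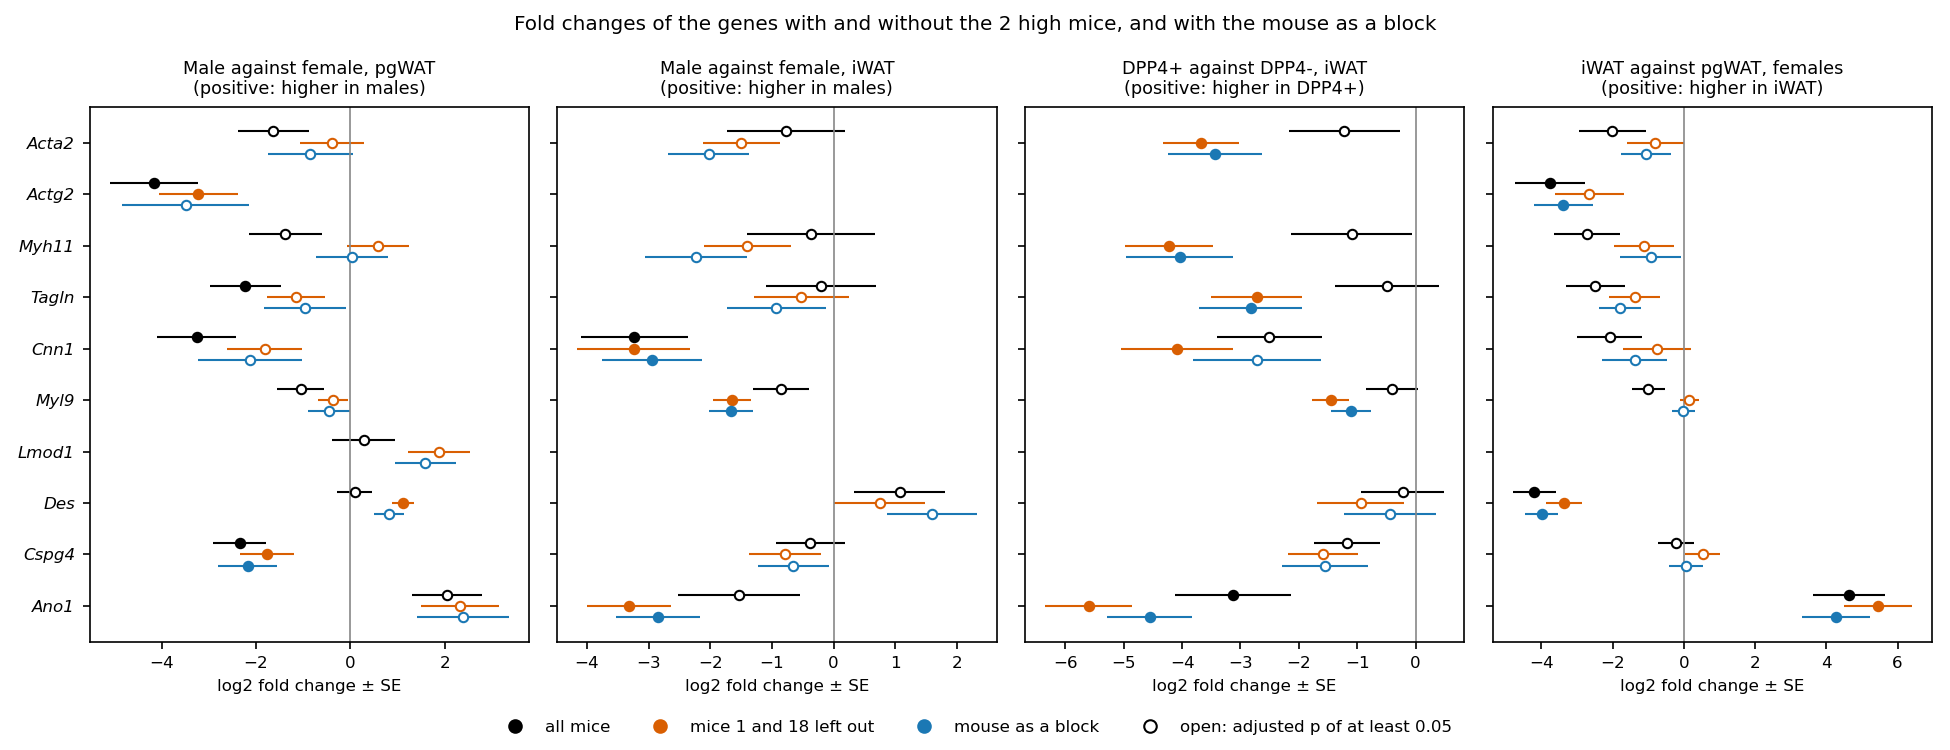
Log2 fold changes (points) with SE (bars) of the genes tested, for sex in pgWAT, sex in iWAT, gate in iWAT and depot in females, each with all mice (black), without mice 1 and 18 (orange) and with the mouse as a block (blue). Filled points have an adjusted p under 0.05; in iWAT, Acta2 between the gates moves from -1.22 to -3.68 without the 2 mice, while Des in females stays at -3.36 or below in the 3 fits.

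In iWAT, 1 of the 8 genes tested differed between the sexes, against 4.9% of all genes. This was Cnn1, lower in males at -3.23 (SE 0.87, adjusted p = 0.0209), with at most 7.18 CPM in a male sample and up to 158 CPM in a female sample. The call was lost without mouse 4, 8, 18 or 19, at adjusted p of 0.0513, 0.055, 0.0998 and 0.0658. Acta2 (-0.77), Myh11 (-0.37), Tagln (-0.21), Myl9 (-0.85), Des (1.07), Cspg4 (-0.38) and Ano1 (-1.53) did not pass, at adjusted p of 0.331 or above. In the fit with the mouse as a block, 3 of 8 genes passed (6.28% of all genes): Cnn1 (-2.95, adjusted p = 0.0196), Myl9 (-1.66, adjusted p = 0.00195) and Ano1 (-2.85, adjusted p = 0.00575). The same 3 passed without mice 1 and 18 (5.23% of all genes), at -3.24 for Cnn1, -1.65 for Myl9 and -3.32 for Ano1. Without mouse 1 alone, Acta2 (-2.06, adjusted p = 0.034), Myl9 (-1.76, adjusted p = 0.000214) and Ano1 (-3.32, adjusted p = 0.00126) were lower in males by edgeR's test. In the DPP4- samples alone, 3 of 6 genes tested were lower in males (3.67% of all genes), namely Acta2 (-2.96, adjusted p = 0.014), Myl9 (-1.59, adjusted p = 0.026) and Ano1 (-3.97, adjusted p = 0.00172). In the DPP4+ samples alone, Des was higher in males (3.24, SE 0.70, adjusted p = 0.00444), 1 of 3 genes tested against 8.27% of all genes. Actg2 and Lmod1 were too low for the fit. In two-sided exact permutation tests over 8 against 8 mice, their difference on the log2(CPM + 1) scale was -0.81 for Actg2 (exact p = 0.209) and -1.05 for Lmod1 (exact p = 0.0513). For Lmod1 the exact p was 0.00995 without mouse 1, 0.0361 without mouse 7 or 20, 0.0454 without mouse 17, 0.041 without mouse 21 and 0.0491 without mouse 23.

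Markers of other cells and cell states also differed between the sexes of iWAT in the same fit, in which 4.9% of all genes were called. All 6 luminal markers tested were lower in males, with a median of -8.61, and so were all 3 basal markers tested, Krt5, Krt14 and Oxtr, with a median of -4.16. Of the genes of myofibroblasts, a matrix-forming state known for Acta2 and Tagln, 4 of 5 tested were lower in males (Postn, Cilp, Lrrc15 and Cthrc1), with a median of -2.56. The sum of the 6 listed myofibroblast genes ran from 200 to 3149 CPM in female iWAT DPP4- and from 831 to 2020 in female iWAT DPP4+, against 101 to 342 and 137 to 440 CPM in the male groups. Of the pericyte markers, 0 of 5 tested passed by edgeR's test, with 2 at an unadjusted p under 0.05, Kcnj8 (-1.12) and Ndufa4l2 (1.51). In pgWAT, where 10.7% of all genes were called, 1 of 3 myofibroblast genes (Postn) was lower in males. Oxtr, the only gene of the basal list that could be tested there, was lower as well. Krt14, Krt17 and Lgals7 of that list had no read in female pgWAT DPP4+ cells, nor had Krt17 in female pgWAT DPP4- cells. Oxtr alone thus does not show basal cells in pgWAT. Of the ASC markers, 3 of 6 (Col1a1, Pdgfra and Lum) were lower in males too. In the same depot, 0 of 6 pericyte and 0 of 5 endothelial markers passed by edgeR's test, with 0 at an unadjusted p under 0.05. Over mice, r of the myofibroblast sum was 0.08 with both Acta2 and Tagln in pgWAT, and 0.25 and 0.22 in iWAT, as a description. Whether the ASC themselves carried the myofibroblast genes was not tested, nor was the part of other cells in the sex differences.

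The sex effect in iWAT depended on the gate for Ano1 and Des, by 2 of the 8 genes tested against 2.85% of all genes. The interaction was 5.87 for Ano1 (SE 1.41, adjusted p = 0.0157) and 4.07 for Des (SE 1.12, adjusted p = 0.0366), where a positive value stands for a male to female ratio that is higher in DPP4+ cells. Acta2 (4.65), Myh11 (4.67), Tagln (3.63), Cnn1 (3.33), Myl9 (1.41) and Cspg4 (0.46) did not pass, at adjusted p of 0.0614 or above. The basal marker Oxtr and the luminal marker Krt19 were called in the same direction. Mouse 1 holds the highest DPP4+ sample of both genes. Without it, Ano1 was at 2.25 (adjusted p = 0.617) and Des at 3.28 (adjusted p = 0.125). Ano1 passed at 6.96 without mouse 21 and at 4.79 without mouse 22, and Des at 4.73 without mouse 18. The Des call was also lost without mouse 8, 17, 19, 20, 23 or 24, at adjusted p between 0.0516 and 0.0928. Without mice 1 and 18, 0 of 8 genes passed by edgeR's test (2.19% of all genes), with 5 at an unadjusted p under 0.05. With the mouse as a block, Des passed (5.01, SE 1.06, adjusted p = 0.00853), 1 of 8 genes against 2.94% of all genes. Without mouse 18, Acta2 (6.28, adjusted p = 0.0123), Myh11 (6.71, adjusted p = 0.0236) and Tagln (5.73, adjusted p = 0.034) passed as well, and Acta2 also passed without mouse 7 (5.29, adjusted p = 0.0416) or 22 (4.84, adjusted p = 0.0359).

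Between the depots, the sex effect differed for 0 of 10 genes by edgeR's test (2.49% of all genes), with 0 by DESeq2. Unadjusted p values under 0.05 were found for 2 genes, Ano1 (-3.60, adjusted p = 0.136) and Cspg4 (1.94, adjusted p = 0.242). The other values were 0.84 for Acta2, 1.11 for Actg2, 0.98 for Myh11, 2.07 for Tagln, -0.09 for Cnn1, 0.18 for Myl9, -0.42 for Lmod1 and 1.00 for Des. Without mice 1 and 18, Ano1 passed at -5.52 (SE 1.05, adjusted p = 0.000402), 1 of 10 genes against 2.93% of all genes, and without mouse 1 alone at -5.05 (adjusted p = 0.000812). A negative value stands for a male to female ratio that is lower in iWAT. All 6 luminal markers tested were also lower in this sense, with a median of -10.97.

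The gates were compared with sex as covariate. In pgWAT, 0 of 10 genes passed between ASC2 and ASC1 by edgeR's test, against 14.7% of all genes, with 0 at an unadjusted p under 0.05 and 0 by DESeq2. The log2 fold changes, DPP4+ against DPP4-, were 1.14 for Tagln (SE 0.73), 0.84 for Acta2, 0.32 for Myl9, 0.16 for Myh11, 0.12 for Cnn1, -0.11 for Ano1, -0.12 for Actg2, -0.30 for Des, -0.41 for Cspg4 and -0.46 for Lmod1. Of the pericyte markers, 2 of 6 (Abcc9 and Ndufa4l2) were lower in DPP4+ cells of pgWAT. In iWAT, 1 of 8 passed, against 15.3% of all genes. This was Ano1, lower in DPP4+ at -3.12 (SE 0.99, adjusted p = 0.026), a call that was lost without mouse 17, 18, 19, 20, 21 or 24, at adjusted p between 0.0515 and 0.0633, and that stood at -5.76 without mouse 1. Acta2 (-1.22), Myh11 (-1.09), Tagln (-0.49), Cnn1 (-2.50), Myl9 (-0.40), Des (-0.22) and Cspg4 (-1.17) did not pass, at adjusted p of 0.0536 or above. When the mouse was a block, 5 of 8 were lower in DPP4+ cells, against 14.7% of all genes called. They were Acta2 (-3.44, SE 0.81, adjusted p = 0.00405), Myh11 (-4.04, SE 0.92, adjusted p = 0.00314), Tagln (-2.83, adjusted p = 0.0312), Myl9 (-1.11, adjusted p = 0.0281) and Ano1 (-4.56, adjusted p = 8.51e-05). Without mice 1 and 18, 6 of 8 were lower in DPP4+ by edgeR's test (15.3% of all genes), the same 5 and Cnn1 (-4.09, adjusted p = 0.00218). Without mouse 1 alone, Acta2 was at -2.99 (adjusted p = 0.000463), Myh11 at -3.28 (adjusted p = 0.000945), Cnn1 at -3.15 (adjusted p = 0.00821) and Myl9 at -1.33 (adjusted p = 0.00184). Cnn1 also passed without mouse 2, 18 or 22 (adjusted p = 0.0341, 0.036 and 0.0477). In edgeR's fit of all mice without the block, markers of other cells were lower in iWAT DPP4+ as well. They were 2 of 5 pericyte markers tested, Abcc9 (-2.31) and Ndufa4l2 (-3.15), with a median of -1.31 over the 5, 5 of 6 luminal markers (median -6.61) and 2 of 3 basal markers, Krt5 and Krt14 (median -5.00). The part of these cells in the gate differences was not tested.

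Across depots, Des had the smallest adjusted p of the set in both sexes. In males its log2 fold change, iWAT against pgWAT, was -3.14 (SE 0.35, adjusted p = 1.94e-08), 8.80-fold lower in iWAT, and in females -4.20 (SE 0.61, adjusted p = 7.7e-06), 18.4-fold lower. Both calls held in all 8 fits that left out a mouse of that sex, between -3.70 and -2.94 in males and between -4.52 and -3.36 in females, the last of these without mouse 18. In males Des was the only 1 of 8 genes called, against 13.6% of all genes. Acta2 (-1.02), Myh11 (-1.64), Tagln (-0.35), Myl9 (-0.76), Lmod1 (-1.63), Cspg4 (1.78) and Ano1 (0.30) did not pass, at adjusted p of 0.0561 or above, and Actg2 and Cnn1 were too low for the fit. With the mouse as a block, Myh11 (-2.35, adjusted p = 0.0152), Myl9 (-1.0003, adjusted p = 0.0353) and Lmod1 (-2.26, adjusted p = 0.0412) were lower as well, 4 of 8 against 12.7% of all genes. Without mouse 1, Des, Myh11 (-2.96, adjusted p = 0.00644) and Lmod1 (-2.75, adjusted p = 0.0112) were lower, 3 of 8 against 13.6% of all genes. Without mouse 4 or mouse 5, Cspg4 was higher in male iWAT (2.16 and 1.91, adjusted p = 0.0341 and 0.0381).

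In females 3 of 9 genes differed between the depots, against 6.6% of all genes. Besides Des, Actg2 was lower in iWAT (-3.76, SE 0.97, adjusted p = 0.0123) and Ano1 was higher (4.63, SE 1.01, adjusted p = 0.00233, 24.7-fold). Actg2 was lost without mouse 18 (-2.66, adjusted p = 0.118), which left 2 of 9 genes against 6.26% of all genes. Without mouse 19, Myh11 (-3.21, adjusted p = 0.0355) and Tagln (-2.93, adjusted p = 0.0347) also passed. Ano1 passed in all 8 fits that left out a female mouse, between 3.26 (without mouse 22) and 5.45 (without mouse 18) on the log2 scale. Acta2 (-2.01), Myh11 (-2.72), Tagln (-2.49), Cnn1 (-2.08), Myl9 (-0.99) and Cspg4 (-0.21) did not pass with all mice, at adjusted p of 0.0671 or above, and Lmod1 was too low for the fit. In the same fit, all 6 luminal markers tested (median 7.22), 2 of 3 basal markers and 2 of 5 pericyte markers (Kcnj8 and Abcc9) were higher in female iWAT. In males, 1 of 6 pericyte markers tested, Abcc9, was higher in iWAT (1.94), against 13.6% of all genes called. The comparisons of sex, gate and depot share samples, so their calls are not independent of each other.

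Other genes of the contractile apparatus were given as a list of 28, which also holds kinases, tropomyosins and the LIM and PDZ proteins of actin bundles. In pgWAT, 24 were tested between the sexes, and 3 were lower in males, against 10.7% of all genes called: the tropomyosin Tpm2 (-1.70, SE 0.51, adjusted p = 0.0266), Pdlim3 (-1.99, adjusted p = 0.0293) and Lpp (-0.42, adjusted p = 0.0491). The median over the tested genes was -0.26 in edgeR's fit. In iWAT, 20 were tested, and 1, Mustn1, was higher in males (0.82, adjusted p = 0.00557), against 4.9% of all genes. The sex effect depended on the gate for 1 of 24 genes, Vcl, in pgWAT (1.23, adjusted p = 0.0188, 1.16% of all genes) and for 1 of 20, Mylk, in iWAT (4.64, adjusted p = 0.0267, 2.85% of all genes), and on the depot for 0 of 24 genes by edgeR's test (2.49% of all genes). Between the gates in iWAT, the LIM protein Csrp1 (-1.80, adjusted p = 4e-05) and Tpm1 (-0.74, adjusted p = 0.042) were lower in DPP4+ cells, while Mustn1 (2.81), Filip1l (1.42) and Fhl1 (0.73) were higher, 5 of 20 against 15.3% of all genes. In pgWAT, only Mustn1 of 24 differed between the gates (1.12, adjusted p = 0.000383), against 14.7% of all genes.

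Between the depots in males, 8 of 21 tested genes were lower in iWAT and 0 higher, against 13.6% of all genes called in either direction. Their median was -0.54, against 0.006 over all genes. Along with Pdlim7, Fhl1, Ppp1r14a and Filip1l, the 8 were the smoothelin gene Smtn (-0.88, adjusted p = 6.9e-05), filamin A, Flna (-0.62, adjusted p = 0.000334), Csrp1 (-1.26, adjusted p = 0.000362) and Pdlim3 (-2.43, adjusted p = 0.0132). In females, 4 of 23 were lower and 0 higher, against 6.6% of all genes, with a median of -0.51: Smtn (-0.92, adjusted p = 0.0228), Flna (-1.02, adjusted p = 0.000805), Mylk (-2.32, adjusted p = 0.0324) and Synpo2 (-2.40, adjusted p = 0.00657).

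Regulators of smooth muscle genes formed a list of 13 genes in the table. Tcf21, a factor of visceral mesenchyme, was lower in iWAT in both sexes (-5.83 in males, adjusted p = 1.48e-15, and -7.27 in females, adjusted p = 8.83e-19). Klf4, known to repress smooth muscle genes, was higher in iWAT in males (0.53, adjusted p = 0.00718) and females (0.47, adjusted p = 0.0296). Heyl, a target of Notch, was lower in DPP4+ than in DPP4- cells of iWAT (-3.66, adjusted p = 0.000108) and of pgWAT (-1.59, adjusted p = 0.00106). Between the depots in males, Ccn2 (-1.83, adjusted p = 5.9e-05), a target of mechanical and TGF-beta signals, and the SRF cofactor Mrtfa (-0.78, adjusted p = 0.0221) were lower in iWAT as well, so that 4 of 10 regulators were called, against 13.6% of all genes. In females 2 of 9 were called, against 6.6%. Between the gates, Klf4 (0.82), the cofactor Mrtfb (0.66, adjusted p = 0.0387) and the Notch ligand Jag1 (1.21, adjusted p = 0.034) were higher in DPP4+ cells of iWAT, 4 of 8 with Heyl, against 15.3% of all genes, and 2 of 9 (Klf4 and Heyl) differed in pgWAT, against 14.7%. In edgeR's test of sex in pgWAT, 2 of 9 regulators (Klf4 and Heyl) were higher and 1 (Tcf21) lower in males, against 10.7% of all genes. In iWAT, Klf4 alone of 8 differed (0.53, adjusted p = 0.0349), against 4.9%. The actins and myosins of non-muscle cells were a list of 9, of which 7 were tested. Between the sexes, 1 of 7 differed in each depot, against 10.7% and 4.9% of all genes: Myh10 was lower in males in pgWAT (-0.89, adjusted p = 0.0143) and Actg1 in iWAT (-0.46, adjusted p = 0.027). In DPP4+ cells 3 of 7 were higher in pgWAT (Actb, Myl12b and Actg1) and 3 in iWAT (Myh10, Myl12b and Myl6), against 14.7% and 15.3% of all genes. Between the depots, Actb and Actg1 were lower and Myl12b higher in iWAT in males (13.6% of all genes), and Myh10 was lower in females (6.6%).

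Markers of pericytes were measured beside the contractile genes, since the question of the comparison was whether levels move with mural cells in the sort. All 8 listed markers (Rgs5, Kcnj8, Abcc9, Higd1b, Ndufa4l2, Cox4i2, Notch3 and Mcam) were in the table. Higd1b was at 0 in both female DPP4- groups, and the group medians of Rgs5, the most specific of them, were between 0 and 6.94 CPM. The summed level ran from 14.2 to 135 CPM in female pgWAT DPP4-, from 3.12 to 263 in female pgWAT DPP4+, from 33.2 to 79.4 in male pgWAT DPP4- and from 13.7 to 226 in male pgWAT DPP4+. In iWAT it ran from 106 to 222 CPM in female DPP4-, from 21.0 to 43.0 in female DPP4+, from 67.8 to 130 in male DPP4- and from 7.77 to 425 in male DPP4+. The highest samples were mouse 18 in both female DPP4+ groups and mouse 1 in 3 of the 4 male groups. In the other groups they were not the mice that led most contractile genes. Mouse 17 was highest in female pgWAT DPP4- (135 CPM, mouse 18 at 109) and mouse 22 in female iWAT DPP4- (222 CPM, mouse 19 at 158). In male iWAT DPP4- it was mouse 6 (130 CPM, mouse 7 at 100). Within iWAT DPP4- cells, the median of Abcc9 alone was 62.6 CPM for females and 46.2 CPM for males.

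**Figure D4:**
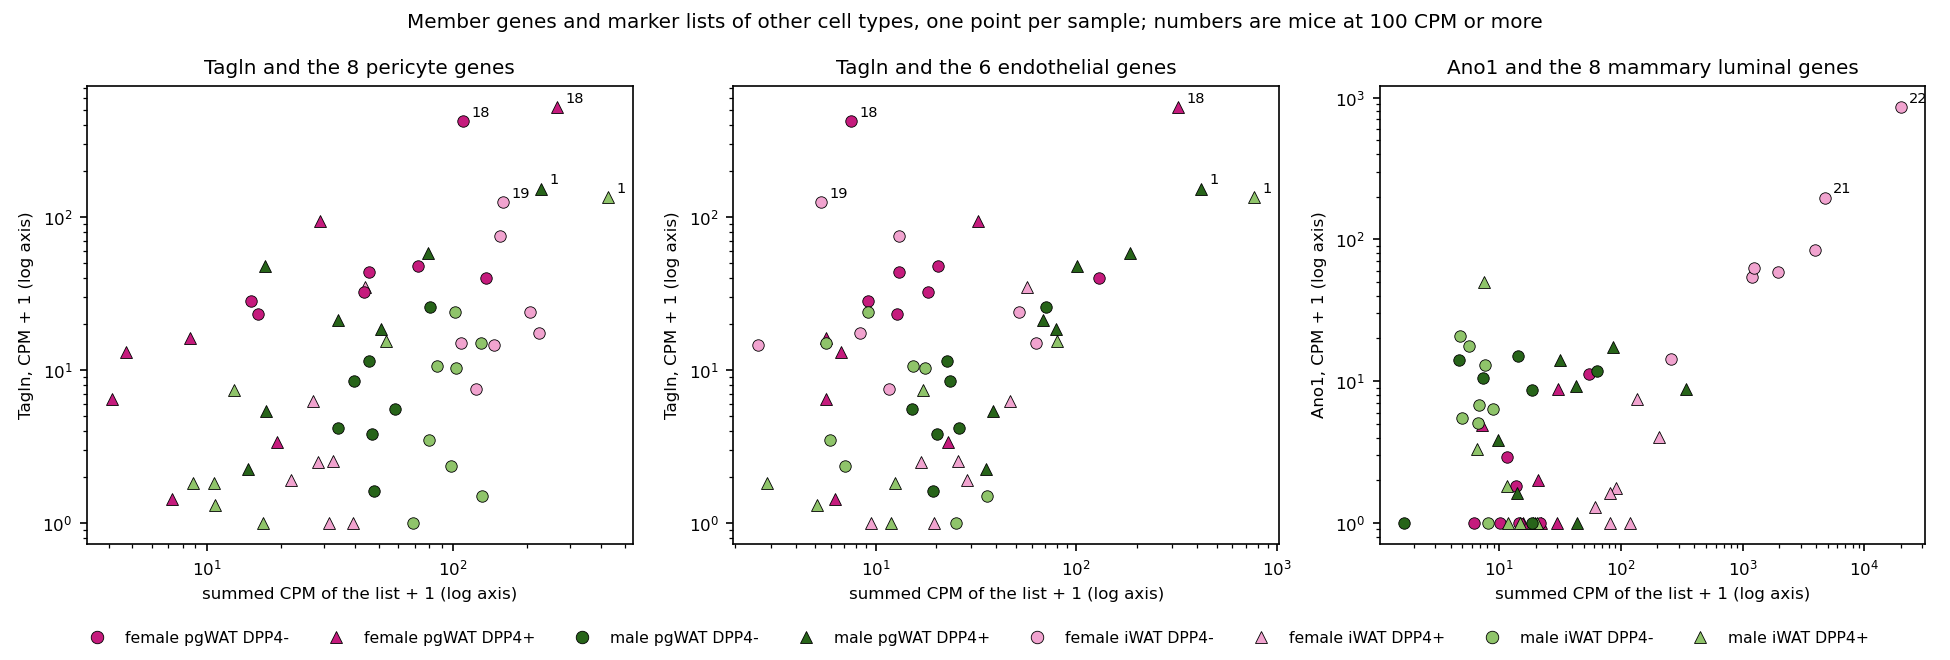
Tagln against the summed pericyte markers (left) and endothelial markers (middle), and Ano1 against the summed mammary luminal markers (right), in CPM + 1 on log axes. Each point is a sample, coloured by group, and numbers name mice; the samples of mouse 18 in pgWAT, at 422 and 523 CPM of Tagln, are at 109 and 263 CPM of pericyte markers and at 6.53 and 322 CPM of endothelial markers.

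Over mice, 8 of the 10 genes varied with the pericyte sum in pgWAT. With group means removed and the gates of a mouse averaged, Pearson's r over 15 mice was 0.87 for Tagln (permutation p = 4e-05, adjusted p = 0.0004; Spearman's rho 0.79, permutation p = 0.0007, adjusted p = 0.007). It was 0.87 for Myl9 (permutation p = 4e-05, adjusted p = 0.0004; rho 0.81, permutation p = 0.00062, adjusted p = 0.007). For Acta2 it was 0.76 (permutation p = 0.0015, adjusted p = 0.00429; rho 0.60, permutation p = 0.0208, adjusted p = 0.0519). Adjustment was over 20 relations, 10 genes in 2 depots. Actg2, Myh11, Cnn1, Lmod1 and Cspg4 also passed by Pearson's r (0.70 to 0.81), Des had an r of 0.59 (adjusted p = 0.0508) and Ano1 0.19. By Spearman's rho, 6 genes passed, without Acta2 and Cspg4. In iWAT, over 16 mice, Myl9 (0.70, permutation p = 0.00265, adjusted p = 0.00662) and Lmod1 (0.56, permutation p = 0.0181, adjusted p = 0.0362) passed by Pearson's r and none by Spearman's rho. Without the 2 mice farthest from the median of the sum, r over 13 mice in pgWAT was 0.66 for Tagln (permutation p = 0.0146, adjusted p = 0.155), 0.66 for Myl9 (permutation p = 0.0155, adjusted p = 0.155) and 0.39 for Acta2 (permutation p = 0.184, adjusted p = 0.361). None of the 20 relations passed after adjustment over the mice left. Other summed lists varied with the same genes in pgWAT, given here as a description with no p. The r of the endothelial sum was 0.84 for Tagln, 0.84 for Myl9, 0.80 for Myh11 and 0.78 for Acta2. That of a list of skeletal muscle genes, whose sum was at most 14.7 CPM in pgWAT, was 0.86 for Lmod1 and 0.82 for Cnn1, where the pericyte sum had 0.81 and 0.76. Whether these lists differ in their relation to the 10 genes was not tested.

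Endothelial RNA was not the same in the 2 gates of mouse 18. The summed level of Pecam1, Cdh5, Kdr, Cldn5, Tie1 and Ptprb was 322 CPM in its pgWAT DPP4+ sample, the highest of that group, and 6.53 CPM in its pgWAT DPP4- sample, the lowest of that group, while Acta2 was at 1437 and 1077 CPM. In mouse 1 the endothelial sum was 770 CPM in iWAT DPP4+ and 418 CPM in pgWAT DPP4+, the highest of their groups, against 4.95 CPM in iWAT DPP4-. All 6 markers had reads in 7 of the 8 groups, and Cdh5 was at 0 in female iWAT DPP4-. Over the other samples of the male pgWAT DPP4+ group the sum ran from 34.3 to 183 CPM. The part of these cells in the contractile genes was not tested.

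Mouse 19, the highest for Acta2 in female iWAT DPP4-, had only 4.35 CPM of endothelial markers there. Its sum of mammary basal markers (Krt5, Krt14, Krt17, Trp63, Oxtr and Lgals7) was 780 CPM, against 240 CPM in mouse 24 and 85.9 to 211 CPM in the other 5 mice of the group. All 6 basal markers had reads in this group, and the sum in the other 7 groups was at most 58.7 CPM. Over the 7 mice, Acta2 and the basal sum had a Pearson r of 0.80 (exact permutation p = 0.0351, adjusted p = 0.123) and a Spearman rho of 0.39 (exact p = 0.396, adjusted p = 0.498). Cspg4 had an r of 0.80 (exact p = 0.0244, adjusted p = 0.123) and a rho of 0.50 (exact p = 0.267, adjusted p = 0.498). None of the 10 relations passed after adjustment. Without the 2 mice farthest from the median, r was -0.57 for Acta2 and -0.09 for Cspg4.

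The genes whose pattern was most like each of the 10 were sought among the 10056 genes with a mean of at least 5 CPM, the 10 themselves left out, by Pearson's r of log2(CPM + 1) over all 57 samples with group means removed. These values are descriptions, since all genes of a sample share its depth. Mylk, the kinase of Myl9, was among the 5 most alike for 8 of the 10 genes and had the highest r with Myh11 (0.88), Tagln (0.81), Myl9 (0.82) and Cspg4 (0.58). Tpm2 came first for Acta2 (0.81), Tpm1 for Actg2 (0.68) and Pdlim3 for Cnn1 (0.76) and Lmod1 (0.84). Sorbs2, an adaptor protein of actin filaments, was among the 5 for 6 genes, with r between 0.66 and 0.76, and the pericyte marker Mcam for Acta2 (0.70), Myh11 (0.72) and Cspg4 (0.57). Plvap, a gene of fenestrated endothelium, was the fifth for Tagln (0.73). Des was most like Flna (0.64) and Max (0.60). Ano1 had other company: Tgm2 (0.66), Tmem176a (0.64) and F11r (0.62), the junctional adhesion molecule of epithelium, came first.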

How the data were processed

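Bulk Smart-seq2 libraries of sorted ASC were analysed from the table of raw counts per gene deposited by the authors. The submitters' processing notes list bcl2fastq, STAR, Salmon and mm10 without saying which of them made this table, and no source used here states the strand setting. The 143 libraries were summed to 57 samples, 1 per mouse, depot and gate: 33 samples had 3 libraries, 20 had 2 and 4 had 1. Libraries held 100026 to 2330623 counts (median 848774), and a ribosomal RNA locus took 36.6% of all counts. Of 119 pairs of libraries of a sample, 0 differed by less than sampling noise. The 92 spike-in control entries (0.00461% of counts) were left out, and 53363 of 53468 genes matched GENCODE M21 (GRCm38). Every column was used, with 0 columns of no sample. A gene at 0 was not detected at this depth, which does not show that it was absent.

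Levels are CPM of summed counts, and logarithms use a pseudocount of 1 CPM. Comparisons used edgeR 4.0.16 (TMM, filterByExpr by group, quasi-likelihood F-test) in R 4.3.3, with Benjamini-Hochberg adjustment over all genes passing the filter and calls at an adjusted p under 0.05. Sex was tested within a depot with gate as covariate, gate within a depot with sex as covariate, and depot within a sex with gate as covariate. Interactions used a term for the product. A mouse number names the same animal in every gate and depot: samples of a mouse had a median r of their deviations from the group means of 0.029 to 0.126, against -0.035 to -0.001 for different mice. With the mouse as a block, sex was tested with limma 3.58.1 (voom, duplicateCorrelation), and the other comparisons with mouse as a factor in edgeR. DESeq2 1.42.0 was an alternative. Permutation tests used 100000 resamples for the relations with the pericyte sum and all arrangements otherwise (scipy 1.17.1). Promoters came from RefSeq tables of GRCm38.p6. Only the edgeR step, for sex in pgWAT, was tested on simulated counts. The rule named all 10 genes in every comparison. Genes most like them and genes of the other lists were described by counts, with a few of them named. The members and lists were chosen with earlier results of these data known. Further alternatives were library totals as scaling, no filter on low counts, averaged libraries, libraries under 250000 counts left out, each gate alone and each mouse left out in turn.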

Additional observations from a re-analysis of the deposited data

Results flagged for a closer look

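In 80 sets of a gene and a group, the distance of the highest or lowest mouse from the others was compared with the range of the group on the log2(CPM + 1) scale by Dixon's criterion. It passed in 18 sets. The usual chance rate of about 1 in 20 holds for normal values, and genes of a sample are not independent. Actg2 was at 0 in 6 of 7 female iWAT DPP4+, 6 of 8 male iWAT DPP4- and 5 of 7 male iWAT DPP4+ samples. Where all other samples are at 0, any read is flagged. The 18 sets therefore cannot be set against that rate. Mouse 18 was far above the other female mice in pgWAT DPP4- cells for Acta2 (1077 CPM), Myh11 (939 CPM), Tagln (422 CPM), Myl9 (512 CPM) and Lmod1 (33.9 CPM). In iWAT DPP4+ cells the same mouse stood apart for Actg2 (14.5 CPM), Myh11 (26.9 CPM), Cnn1 (12.1 CPM) and Lmod1 (2.16 CPM). Mouse 1 stood apart in male iWAT DPP4+ cells for Actg2 (2.56 CPM), Myh11 (165 CPM), Myl9 (237 CPM), Lmod1 (18.3 CPM) and Ano1 (49.3 CPM). In male iWAT DPP4- cells, mouse 7 was high for Cnn1 (7.18 CPM) and Lmod1 (8.13 CPM), mouse 2 was high for Actg2 (1.61 CPM), and mouse 6 was low for Ano1 (0 CPM). Of the Actg2 values in iWAT, that of mouse 18 rests on 47 reads, that of mouse 1 on 7 and that of mouse 2 on 2. Those of Lmod1 rest on 50 reads in mouse 1, 17 in mouse 7 and 7 in mouse 18. The effect of sex in iWAT differed between the gates for Des, with an interaction of 4.07 on the log2 scale, and for Ano1, with 5.87.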

How the results depend on the processing

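The count of genes called, out of those tested, is given for each alternative where it moved by more than 1.5 times. The number tested of the 10 genes changed with the filter, the averaging and the gate. Counts over different numbers are thus not directly comparable. For sex in pgWAT (4 of 10 called), it was 1 of 10 with the mouse as a block. It was 0 of 5 in DPP4+ samples alone. For sex in iWAT (1 of 8), the count was 2 of 10 without a filter on low counts. It was 0 of 6 with averaged libraries and 3 of 6 in DPP4- samples alone. With the mouse as a block and without mice 1 and 18 it was 3 of 8 each. Over all genes, 542 of 11072 were called in the main fit. Without the filter 1382 of 33811 were called, and with averaged libraries 559 of 8391. For sex by depot (0 of 10), the count was 1 of 10 without the filter and with averaged libraries. It was also 1 of 10 in DPP4- samples alone and without mice 1 and 18. Over all genes, 305 of 12270 were called in the main fit and 698 of 37245 without the filter. With averaged libraries 347 of 9847 were called, and in DPP4- samples alone 246 of 10864. For sex by gate in pgWAT (0 of 10), the count was 1 of 10 with the mouse as a block. For sex by gate in iWAT (2 of 8), the count was 4 of 8 with library totals as the scaling. It was 5 of 10 without the filter and 4 of 6 with averaged libraries. Without libraries under 250000 counts and with the block it was 1 of 8 each, and without mice 1 and 18 0 of 8. Over all genes, 315 of 11072 were called in the main fit and 771 of 11072 with library totals. Without the filter 781 of 33811 were called, with averaged libraries 349 of 8391, and without the shallow libraries 226 of 11026. For the gates in iWAT (1 of 8), the count was 2 of 10 without the filter. It was 5 of 8 with the block and 6 of 8 without mice 1 and 18. Over all genes, 1697 of 11072 were called in the main fit and 2783 of 33811 without the filter. For the depots in males (1 of 8), the count was 2 of 8 by DESeq2 and 3 of 10 without the filter. It was 4 of 8 with the block and 3 of 8 without mouse 1. Over all genes, 1524 of 11208 were called in the main fit, 1777 of 11208 by DESeq2 and 2241 of 34302 without the filter. In females (3 of 9), the count was 6 of 10 without the filter. Over all genes, 723 of 10961 were called with the filter and 1594 of 33320 without it. The block left the counts of the other comparisons within that range. Leaving out each mouse in turn gave 3 to 5 calls for sex in pgWAT, 0 to 4 for sex in iWAT, 0 to 1 for sex by depot, 0 for sex by gate in pgWAT, 0 to 5 for sex by gate in iWAT, 0 for the gates in pgWAT, 0 to 5 in iWAT, 1 to 3 for the depots in males, 2 to 5 in females and 0 to 1 for the genes removed by the filter. The share of all genes called in these fits is not given, so the ranges show only how far the calls moved. The genes tested also varied between fits: Cnn1 entered 5 of the 8 for the depots in males and Lmod1 3 of the 8 in females. Of the 20 relations with the pericyte sum, 10 passed with all mice and 0 without the 2 farthest mice. No gene called with all mice changed sign under any alternative. No call under an alternative had the opposite sign to the fit of all mice. Between alternatives, signs did differ for genes not called with all mice. For sex in pgWAT, Myl9 ran from -1.60 to 0.16 over the fits that left out a mouse, Acta2 from -2.15 to 0.11 and Myh11 from -1.61 to 0.77. The cause of these changes was not tested. The alternative without mice 1 and 18 and the luminal relation were chosen after seeing the data.

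Over all genes, library totals as the only scaling changed the split of calls. For sex in iWAT, 181 of 623 calls were higher in males, against 298 of 542. The share of positive calls was 65 of 282 against 122 of 305 for sex by depot, 115 of 165 against 56 of 130 for sex by gate in pgWAT, and 704 of 771 against 166 of 315 for sex by gate in iWAT. It was 426 of 2181 against 876 of 1524 for the depots in males and 308 of 850 against 377 of 723 in females. This scaling moved the median of all genes to -0.19, -0.16, 0.20 and 0.48 in the first 4 of these and to -0.26 for the depots in males. DESeq2 called 829 genes for sex in iWAT, 200 for sex by gate in pgWAT and 599 in iWAT, and without the filter 1836 genes were called for sex in pgWAT (1205 with it), 1382 for sex in iWAT, 698 for sex by depot, 273 and 781 for sex by gate in pgWAT and iWAT, 2783 for the gates in iWAT (1697 with it), and 1594 for the depots in females. In one gate alone, 417 genes (DPP4+) were called for sex in pgWAT, 852 (DPP4+) and 313 (DPP4-) for sex in iWAT, 97 (DPP4+) for sex by depot, and 718 and 299 (DPP4-) for the depots in males and females. With the block, 202 were called for sex by gate in pgWAT. For sex by gate in iWAT, 133 of 325 calls were positive with the block and 91 of 226 without libraries under 250000 counts. For sex by depot they were 226 of 376 without those libraries and 189 of 347 with averaged libraries.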
